A study of Mus musculus with 4 samples.

Results

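Transcripts of 10 mouse genes that write, bind or organise histone H3 lysine 9 (H3K9) methylation were measured in embryonic stem cells without B-type lamins. The genes were taken by symbol: the H3K9 methyltransferases Ehmt1, Ehmt2, Setdb1, Suv39h1 and Suv39h2, the heterochromatin protein 1 (HP1) genes Cbx1, Cbx3 and Cbx5, the corepressor Trim28 (KAP1) and the chromatin remodeller Atrx. All 10 had a row among the 37991 genes of the count table, and all 10 passed the filter on low counts that left 14027 genes for testing. The study compared dKO cells, null for both B-type lamin genes Lmnb1 and Lmnb2, with wild-type (wt) cells, with 2 biological replicates of each genotype and RNA sequencing of total RNA. Every library carried the strain label ZHBTc4, a mouse embryonic stem cell line whose endogenous Pou5f1 alleles were inactivated and replaced by a tetracycline-repressible Pou5f1 transgene. The labels do not say how many clones each genotype represents, so loss of lamins and a difference between lines cannot be told apart.

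Methylated H3K9 marks silent chromatin, much of which lies against the nuclear lamina at the inner face of the nuclear envelope. SUV39H1 and SUV39H2 trimethylate H3K9 mainly at pericentromeric repeats, the EHMT1 (GLP) and EHMT2 (G9a) heterodimer makes the mono- and dimethyl marks, and SETDB1 is brought by TRIM28 to retroelements and imprinted loci in embryonic stem cells. HP1 proteins bind methylated H3K9 through a chromodomain and recruit further factors through a chromoshadow domain, and ATRX deposits the histone variant H3.3 at heterochromatin with DAXX.

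Total counts ranged from 12899964 to 16697970 per library. The genotype labels held, with Lmnb1 at 4.24 and 6.03 CPM (counts scaled to library size, with TMM factors) in dKO libraries and 668 and 547 CPM in wt libraries, and Lmnb2 at 2.52 and 3.28 CPM in dKO and 105 and 118 CPM in wt libraries. All 10 embryonic stem cell markers exceeded 1 CPM in every library, with a summed level of 6472 and 6911 CPM in dKO and 5607 and 5595 CPM in wt libraries. The higher dKO sum came from part of the list. Of the 10 markers, 5 had a positive and 5 a negative log2 fold change (dKO minus wt), with a median of 0.02 and a range from -0.207 to 1.17. At an unadjusted p under 0.05 in edgeR, 3 of the 10 were higher in dKO and 0 lower. Over all tested genes the shares were 2.87% and 2.71%. None of the 10 passed an adjusted p of 0.05. Pou5f1 stood at 790 and 822 CPM in dKO and 876 and 751 CPM in wt libraries. Summed fibroblast markers reached 9.64 and 35.9 CPM in dKO and 15.95 and 50.9 CPM in wt libraries, of which Acta2 made up most in both replicates 2, at 28.2 CPM in dKO and 36.8 CPM in wt. Summed trophoblast markers reached 271 and 536 CPM in dKO and 426 and 717 CPM in wt libraries, and primitive endoderm markers 284 and 294 CPM in dKO and 230 and 277 CPM in wt libraries. None of the markers on these lists was at 0 in all 4 libraries. In bulk RNA, fewer cells of a type and less RNA per cell cannot be told apart.

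Cbx3 has near-identical copies elsewhere in the genome, and its sequence is shown with theirs for that reason. Its coding sequence of 549 bases resembles 13 other annotated genes and pseudogenes at 90% identity or more over at least 200 bases, and 6 of these have a row in the table. The closest copies in the table, the processed pseudogenes Cbx3-ps6 and Cbx3-ps7, match it at 99.8% and 99.6% over all 549 bases. Coding bases 351 to 440 of Cbx3, counted from the A of the start codon, are given here with the same stretch of both copies and of the other HP1 genes, from GENCODE M21 transcripts (build GRCm38). Capitals mark bases that differ from Cbx3.
Cbx3: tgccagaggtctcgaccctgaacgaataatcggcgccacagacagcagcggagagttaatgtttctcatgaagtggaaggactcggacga
Cbx3-ps6: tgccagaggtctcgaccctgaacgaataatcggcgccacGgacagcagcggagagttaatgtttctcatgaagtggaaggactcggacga
Cbx3-ps7: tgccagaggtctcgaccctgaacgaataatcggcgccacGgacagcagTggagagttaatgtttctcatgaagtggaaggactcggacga
Cbx1: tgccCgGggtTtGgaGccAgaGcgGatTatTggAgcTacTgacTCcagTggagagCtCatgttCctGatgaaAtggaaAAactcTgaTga
Cbx5: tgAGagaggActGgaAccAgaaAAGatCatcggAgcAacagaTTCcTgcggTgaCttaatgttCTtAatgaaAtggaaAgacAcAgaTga
Cbx3-ps6 on chromosome 14 differs from Cbx3 by A390G alone, and Cbx3-ps7 on chromosome 1 by A390G and C399T, where the Cbx3 base comes first. A read that lies inside the coding sequence and spans neither position is the same for all 3 loci. Untranslated exons were not compared. Cbx1 differs at 25 and Cbx5 at 26 of these 90 positions. Over the whole coding sequence, Cbx1 and Cbx3 share 72.2% of aligned bases, Cbx1 and Cbx5 72.3%, and Cbx3 and Cbx5 72.4%. Cbx3-ps6 had 0 counts in all 4 libraries, and Cbx3-ps7 had 0 and 1 in dKO and 0 and 3 in wt libraries. Reads that fit several loci may have been dropped or divided before counting, so the level of Cbx3 is uncertain.

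Whether dKO cells differ from wt cells in these transcripts was tested for each gene, with genotype as the only term. A fit that adds the replicate number as a block is given with the dependence on processing. None of the 10 passed edgeR's quasi-likelihood test at an adjusted p of 0.05, where 12 of 14027 genes did (0.0855%). None had an unadjusted p under 0.05 either, against 782 genes (5.57%) over the whole table, and none was called by DESeq2, which called 0.403% of the genes it was run on, or by limma-voom, which called 0.0356%. The lowest adjusted p among them was 0.907, for Setdb1. Log2 fold changes (dKO minus wt) ran from -0.29 for Atrx to 0.26 for Cbx5, with 6 positive and 4 negative and a median of 0.19. The median over all tested genes was -0.002. Without dKO replicate 1 the median of the 10 was -0.036, and without wt replicate 2 it was -0.025. Leaving out 1 library leaves a replicate number in 1 genotype only, so such values also take in differences between replicate numbers. The 95% interval lay inside a 1.5-fold change in either direction for 5 of the 10 genes, Trim28, Cbx3, Setdb1, Cbx5 and Ehmt2, against 37.2% of all tested genes. Leaving out 1 library gave 2 to 6 such genes.

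**Figure D1:**
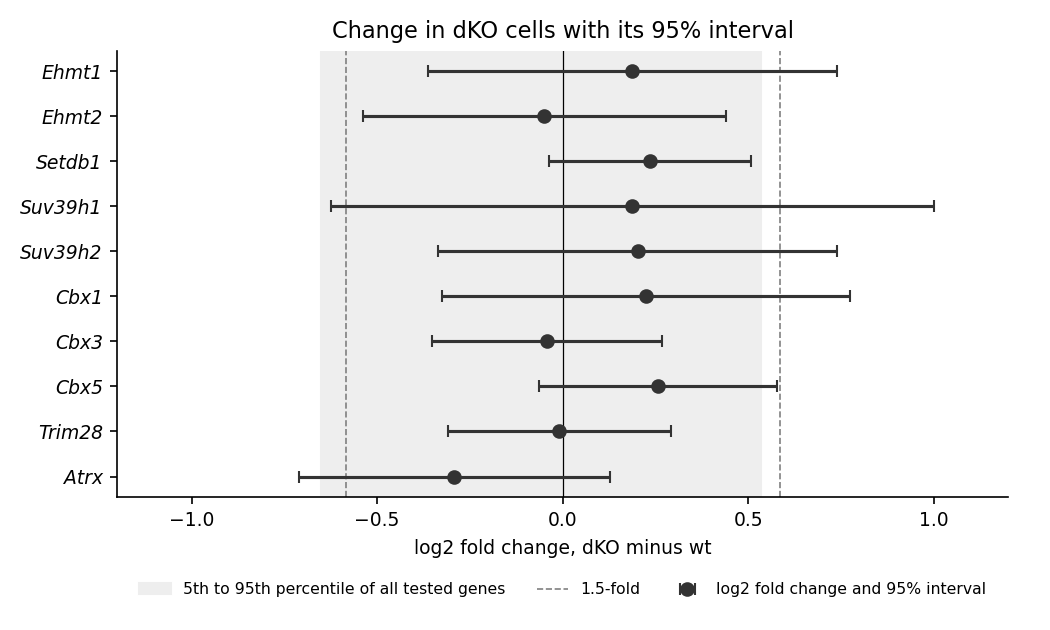
Log2 fold change (dKO minus wt, x axis) of each of the 10 genes with its 95% interval from edgeR's quasi-likelihood fit. Grey shading spans the 5th to 95th percentile of all 14027 tested genes (-0.65 to 0.53), dashed lines mark a 1.5-fold change, and every interval crosses 0.

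Among the methyltransferases, Setdb1 (ENSMUSG00000015697, chromosome 3, 95127447 to 95161124 in the table's own build) had the closest replicates. It stood at 202 and 201 CPM in dKO libraries and at 167 and 175 CPM in wt libraries. The genotypes did not overlap, with both dKO libraries above both wt libraries, as for 17.2% of all tested genes. The fitted fold was 1.18, with a 95% interval of 0.975 to 1.42 (0.24 on the log2 scale with an SE of 0.11, adjusted p = 0.907 in edgeR). Its value stayed between 0.20 and 0.27 when any 1 library was left out.

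Ehmt1 and Ehmt2, whose products work as a pair, overlapped between genotypes. Ehmt1 (chromosome 2, 24646289 to 24775129) had 117 and 85.1 CPM in dKO libraries and 103 and 74.5 CPM in wt libraries, for a fitted log2 difference of 0.19 (SE 0.22, adjusted p = 0.981 in edgeR). Ehmt2 (chromosome 17, 35035414 to 35050997) had 121 and 83.6 CPM in dKO libraries and 112 and 100.5 CPM in wt libraries, for a fitted log2 difference of -0.05 (SE 0.20, adjusted p = 0.995 in edgeR). In both genes the spread within a genotype was wider than the gap between the genotype means. Both changed sign when 1 library was left out, Ehmt1 between -0.057 and 0.435 and Ehmt2 between -0.34 and 0.20. Within each replicate number Ehmt1 was higher in the dKO library, while Ehmt2 was higher there in replicate 1 only. Per kb of annotated exon, Ehmt1 made up 39.5% and 40.8% of the Ehmt pair in dKO libraries and 38.5% and 33.4% in wt libraries. That share was higher in both dKO libraries by a mean of 4.21 percentage points, at an exact two-sided permutation p of 0.333, the smallest that 2 against 2 libraries allow. The difference was 1.68 points when replicate 2 of wt was left out, and 6.74 points when replicate 1 of wt was.

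Suv39h1 and Suv39h2 had the lowest counts of the 10. Suv39h1 (chromosome X, 7638297 to 7651886) had 702 and 412 counts in dKO libraries and 458 and 360 in wt libraries, which is 43.1 and 24.6 CPM in dKO and 35.8 and 23.7 CPM in wt libraries. Suv39h2 (chromosome 2, 3373087 to 3392303) had 41.4 and 30.5 CPM in dKO libraries and 35.5 and 27.1 CPM in wt libraries. Neither gene separated the genotypes, though within each replicate number both were higher in the dKO library. The log2 fold change was 0.19 for Suv39h1, with a wide 95% interval of -0.62 to 0.9995 (edgeR adjusted p = 0.99). For Suv39h2 it was 0.20, with an interval of -0.34 to 0.74 (edgeR adjusted p = 0.981). Leaving out replicate 1 of dKO gave -0.27 for Suv39h1 and leaving out replicate 2 of dKO gave 0.54, and the upper bound of its interval was a 2.00-fold change. Per kb, Suv39h1 made up 46.6% and 40.2% of the Suv39h pair in dKO libraries and 45.8% and 42.2% in wt libraries, and these shares overlapped between genotypes.

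Both Suv39h genes share exon sequence with genes on the opposite strand, and no source used here says whether counting used strand. Suv39h1 shares 767 of its 5270 exonic bases with the antisense gene Gm14820, which had 120 and 225 counts in dKO libraries and 107 and 198 in wt libraries. Its counts were higher in replicate 2 of both genotypes, where those of Suv39h1 were lower. When the counts of Gm14820 were added to Suv39h1, an alternative chosen after the data were seen, the log2 fold change was 0.13 (edgeR adjusted p = 0.987). Suv39h2 shares 357 of 4410 exonic bases with the protein-coding gene Dclre1c, and Setdb1 shares 75 of 6853 with Cers2. Levels of these pairs are uncertain to the extent of the shared bases.

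Cbx5 was the one HP1 gene whose genotypes did not overlap. Cbx5 (HP1 alpha, chromosome 15, 103021975 to 103070247) had 576 and 666 CPM in dKO libraries and 507 and 533 CPM in wt libraries. Both dKO libraries were above both wt libraries, as for Setdb1. The fold was 1.19, with a 95% interval of 0.956 to 1.49 (0.26 on the log2 scale with an SE of 0.13, adjusted p = 0.922 in edgeR). Without dKO replicate 2, the higher of the pair, the log2 fold change was 0.15.

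Cbx1 (HP1 beta, chromosome 11, 96650441 to 96669954) had 481 and 376 CPM in dKO libraries and 436 and 297 CPM in wt libraries. Its genotypes overlapped, though within each replicate number the dKO library was the higher. The fitted log2 difference of 0.23 (SE 0.22, adjusted p = 0.981 in edgeR) became -0.023 without replicate 2 of wt and 0.523 without replicate 1 of wt. Each of these fits leaves a replicate number in 1 genotype only. Cbx3 (HP1 gamma, chromosome 6, 51420359 to 51433703) had 65.3 and 65.1 CPM in dKO libraries and 71.0 and 63.4 CPM in wt libraries. Its log2 fold change was -0.04 (95% interval -0.35 to 0.27, edgeR adjusted p = 0.994), and -0.046 with the counts of its annotated copies added.

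**Figure D2:**
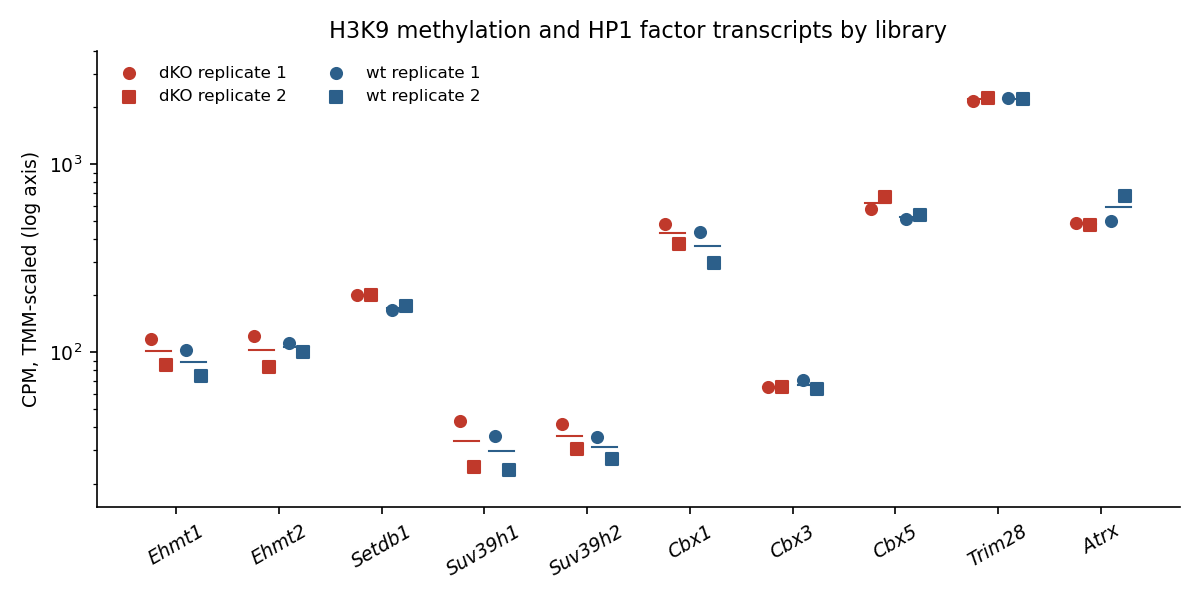
CPM of the 10 genes (log axis) in the 2 dKO libraries (red) and the 2 wt libraries (blue), with circles for replicate 1, squares for replicate 2 and a line at each genotype mean. Trim28 lies above 2000 CPM and both Suv39h genes below 50 CPM, and for most genes the genotypes overlap.

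Per kb of exon, Cbx1 made up 60.0% and 50.9% of the HP1 signal in dKO libraries and 59.9% and 49.9% in wt libraries. Cbx5 made up 34.1% and 42.8% in dKO and 33.1% and 42.5% in wt libraries. Cbx3 made up 5.82% and 6.29% in dKO and 6.96% and 7.60% in wt libraries. The Cbx1 and Cbx5 shares differed by 0.556 and 0.672 percentage points between the genotype means, less than the spread between replicates. The Cbx3 share was lower in both dKO libraries, by a mean of 1.23 percentage points (exact two-sided permutation p = 0.333, the smallest possible), and by 1.95 points when each gene was divided by its longest coding transcript. With that length, Cbx3 made up 9.51% and 10.9% in dKO and 11.3% and 13.1% in wt libraries, since its annotated exons span 5.99 kb and its longest coding transcript 1.89 kb. The reads that Cbx3 shares with its copies bear on its share in every library.

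**Figure D3:**
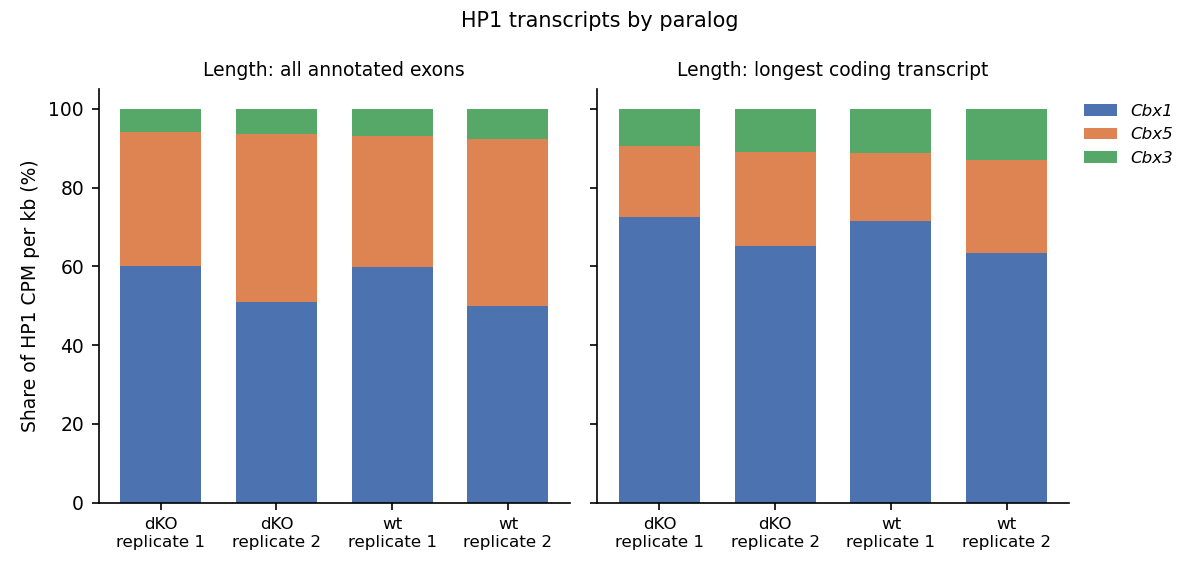
Share of each HP1 gene in the summed HP1 CPM per kb (%) in each library, with length taken as all annotated exons (left) or the longest coding transcript (right). Bars of the same replicate number resemble each other across genotypes, and Cbx3 is the smallest share in every library under both lengths.

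Trim28, the scaffold that links KRAB zinc finger proteins to SETDB1 and HP1, was by far the most abundant of the 10. It had 2175 and 2248 CPM in dKO libraries (chromosome 7, 13609501 to 13616384) and 2233 and 2217 CPM in wt libraries. All 4 libraries lay close together and the genotypes overlapped. The log2 fold change was -0.01 (95% interval -0.31 to 0.29, edgeR adjusted p = 0.997).

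Atrx (chromosome X, 102992954 to 103124736) had the most negative value of the 10. It had 485 and 474 CPM in dKO libraries and 500.5 and 675 CPM in wt libraries. Both dKO libraries were below both wt libraries, as for 16.4% of all tested genes. Replicate 2 of wt stood apart, while replicate 1 of wt was close to both dKO libraries. Its log2 fold change of -0.29 (SE 0.17, adjusted p = 0.944 in edgeR) became -0.060 when replicate 2 of wt was left out, and -0.496 when replicate 1 of wt was.

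Ordered by CPM per kb of exon, averaged over all 4 libraries, Trim28 came first at 534, followed by Cbx1 (93.0), Cbx5 (63.4), Setdb1 (27.2), Atrx (24.5), Ehmt2 (19.0), Ehmt1 (11.7), Cbx3 (11.1), Suv39h2 (7.63) and Suv39h1 (6.03). Each gene was above the next in all 4 libraries except for Setdb1 above Atrx, which held in 3 of 4, and Ehmt1 above Cbx3, which held in 2 of 4. Over libraries the ranges of Cbx1 and Cbx5, of Atrx and Ehmt2 and of both Suv39h genes also overlapped. With the longest coding transcript as length, Trim28, Cbx1 and Cbx5 kept the first 3 places, Cbx3 took place 6 and the Suv39h genes changed places.

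For several members the replicate number went with larger differences than genotype. For 6 of the 10, Ehmt1, Ehmt2, Suv39h1, Suv39h2, Cbx1 and Cbx3, both replicates 1 were above both replicates 2, as for 26.2% of all tested genes. No member had both replicates 1 below both replicates 2, as 26.1% of all tested genes did. Suv39h1 was 1.75-fold higher in replicate 1 than in replicate 2 of dKO cells and 1.51-fold higher in wt cells. Ehmt1 was 1.38-fold higher in dKO and 1.38-fold in wt cells, Suv39h2 1.36-fold in dKO and 1.31-fold in wt cells, and Cbx1 1.28-fold in dKO and 1.47-fold in wt cells. Ehmt2 was 1.45-fold higher in dKO but 1.11-fold in wt cells. For Cbx3 the separation was slight, at 65.3 CPM in dKO replicate 1 against 65.1 CPM in dKO replicate 2. Setdb1 and Trim28 differed by less than 1.1-fold between replicates of either genotype. The labels give no batch or day for the numbers, and this pattern was described after the values were seen. Summed trophoblast, fibroblast and primitive endoderm markers went the other way, lower in replicate 1 than in replicate 2 of each genotype. For primitive endoderm in dKO the sums lay close, at 284 and 294 CPM. Single markers went both ways. Abundant ones such as Krt18, Col4a1 and Acta2 were lower in replicate 1 of both genotypes, while Cdx2, Ascl2, Pdgfra, Gata6 and Sox17, among others, were higher there. The part of these markers in the pattern was not tested.

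**Figure D4:**
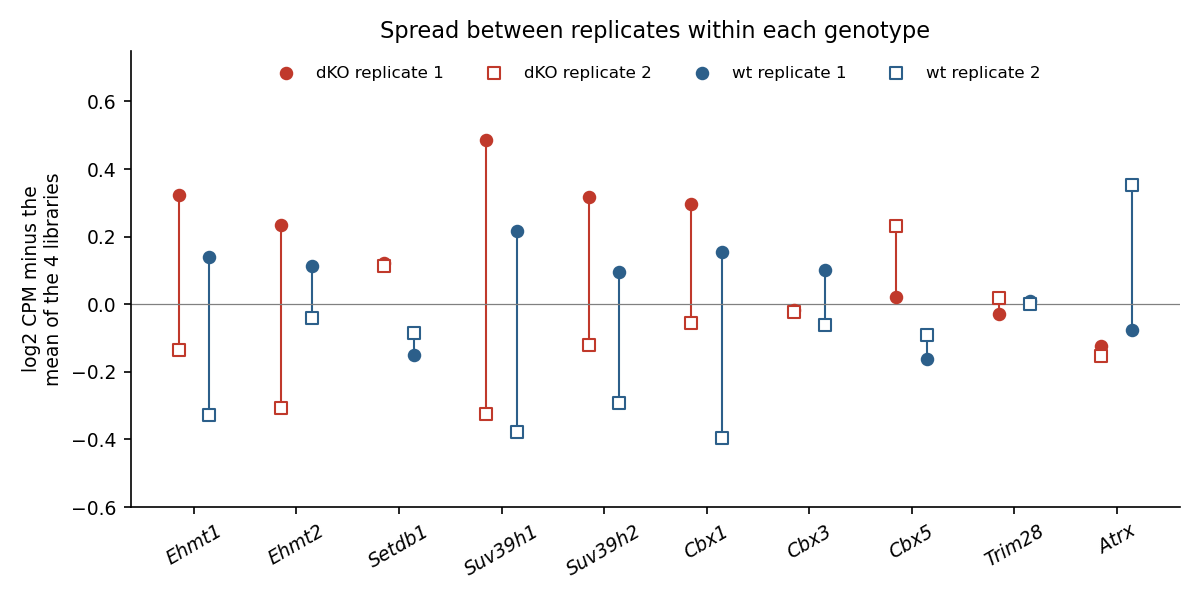
Log2 CPM of each gene minus its mean over the 4 libraries, for dKO (red) and wt (blue), with filled circles for replicate 1, open squares for replicate 2 and a line joining the replicates of a genotype. In Ehmt1, Suv39h1, Suv39h2 and Cbx1 the replicates lie far apart in both genotypes with replicate 1 higher, while Trim28 is flat.

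The other genes of the pathway were read from the same fit over all genes. Of 68 listed genes 62 were tested, and with genotype as the only term none passed the adjusted threshold in edgeR, DESeq2 or limma-voom, with 43 positive and 19 negative log2 fold changes and a median of 0.11. At an unadjusted p under 0.05 in edgeR, 2 of the 62 were higher and 5 lower. Over all tested genes the shares were 2.87% higher and 2.71% lower. The 5 lower genes include near-identical Zscan4 copies at low counts, so they are not 5 separate observations. The fit with a replicate block calls some of these genes, which are named with the dependence on processing.

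The list of complex partners of the methyltransferases and of TRIM28, which also takes in related genes such as Prdm16, held 17 genes. All were tested, with a median log2 fold change of 0.11 and 11 positive values. WIZ, a zinc finger protein of the G9a and GLP complex, had 69.9 and 73.8 CPM in dKO libraries and 97.7 and 103 CPM in wt libraries. Wiz did not overlap between genotypes, with a log2 difference of -0.49 (SE 0.12, adjusted p = 0.583 in edgeR). Zfp809, which encodes a KRAB zinc finger protein that silences retroviral DNA through TRIM28, had 21.6 and 17.2 CPM in dKO libraries and 28.9 and 27.9 CPM in wt libraries, a log2 fold change of -0.55 (edgeR adjusted p = 0.77). Both of these had an unadjusted p under 0.05, and neither passed over all genes. The most positive values were 0.54 for Prdm16, a PR-domain factor at under 12 CPM, and 0.44 for Zfp462, a zinc finger gene (edgeR adjusted p = 0.978 and 0.937).

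H3K9 demethylases remove the mark. Of the 11 listed genes 10 were tested, with a median of 0.11 and 8 positive values. Kdm4c had 153.5 and 151 CPM in dKO libraries and 130 and 106 CPM in wt libraries, a log2 fold change of 0.37 (edgeR adjusted p = 0.859). Kdm7a had 22.9 and 21.4 CPM in dKO libraries and 16.4 and 17.2 CPM in wt libraries, a value of 0.40 (edgeR adjusted p = 0.888). In both genes the dKO libraries were above the wt libraries. Kdm4a at -0.06 and Kdm4b at -0.02 were the only negative ones among the tested genes, and Kdm4d had at most 8 counts in any library.

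Genes of heterochromatin assembly, 18 in number and all tested, had a median of 0.08 and 14 positive values. Smchd1, a structural protein of silent chromatin on the inactive X chromosome, had 158.5 and 132 CPM in dKO libraries and 121 and 98.2 CPM in wt libraries, a log2 fold change of 0.41 (edgeR adjusted p = 0.888). Lbr, the lamin B receptor that tethers heterochromatin and binds HP1, had 227 and 160.2 CPM in dKO libraries and 186 and 144 CPM in wt libraries (0.23, edgeR adjusted p = 0.981), with overlap between genotypes. Daxx, the partner of ATRX, had a value of -0.21 and Chaf1b, a subunit of the chromatin assembly factor CAF-1, of -0.09. The 95% interval lay within 1.5-fold for 14 of these 18 genes, against 37.2% of all tested genes. Whether their expression level accounts for this was not tested.

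The polycomb Cbx genes encode chromodomain proteins that bind H3K27 methylation instead. All 5 were tested and had positive values with a median of 0.14, none with separated genotypes. Cbx7 stood at 328 and 288 CPM in dKO and 296 and 257 CPM in wt libraries (0.16).

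Germline and 2-cell-like genes listed as kept low by H3K9 methylation in embryonic stem cells gave scattered values. Of 17 listed genes 16 had a row and 12 were tested, with 5 positive and 7 negative values and a median of -0.12. The germline helicase gene Ddx4 had 46.1 and 32.8 CPM in dKO libraries and 30.6 and 20.8 CPM in wt libraries, a log2 fold change of 0.62 (edgeR adjusted p = 0.889). Mael, of the piRNA pathway, had 33.2 and 22.8 CPM in dKO libraries and 23.2 and 14.8 CPM in wt libraries, a value of 0.56 (edgeR adjusted p = 0.934). Zscan4c and Zscan4d, genes of the 2-cell-like state, had 8 and 8 counts and 6 and 16 counts in dKO libraries, and 32 and 31 counts and 51 and 30 counts in wt libraries (edgeR adjusted p = 0.404 and 0.72). These are near-identical copies at low counts. Of the Magea genes with a row, Magea2 and Magea6 had 0 counts in every library, Magea5 at most 1 and Magea8 at most 3.

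**Figure D5:**
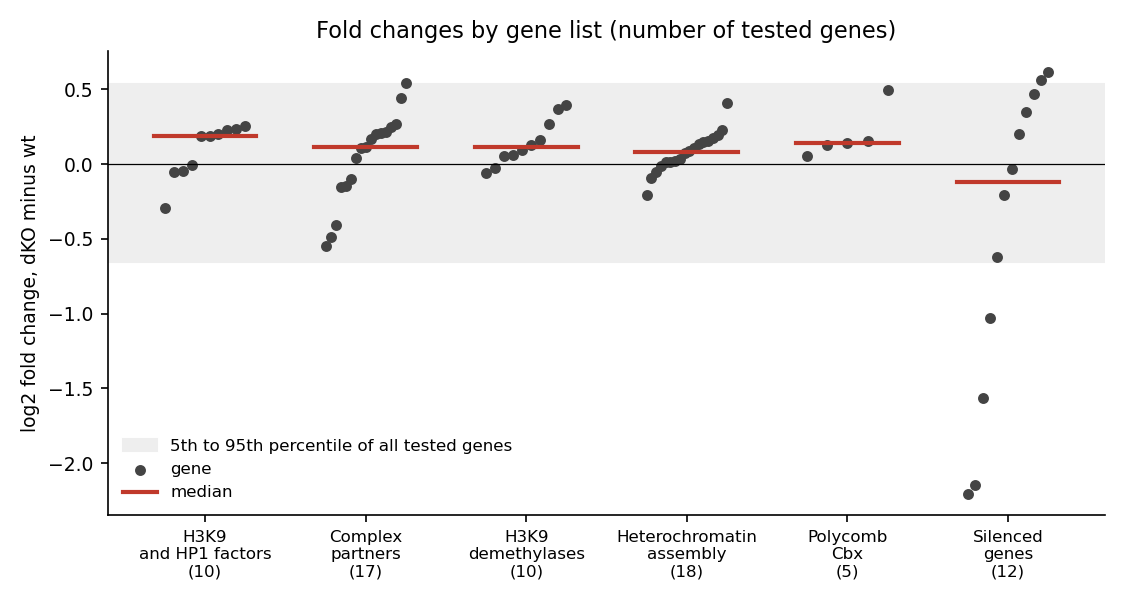
Log2 fold change (dKO minus wt) of every tested gene on each list, with a red line at the list's median and grey shading from the 5th to the 95th percentile of all tested genes. The 10 H3K9 and HP1 factors lie between -0.29 and 0.26, inside the shading, and the silenced genes reach down to -2.21 at Zscan4c.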

How the data were processed

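The authors deposited raw counts of reads for each Ensembl gene in 4 libraries. The submitters' processing notes name TopHat2 2.0.6, TopHat and HTSeq. No genome build, annotation or strand setting was found in the sources used here, and coordinates are those of the table. Symbols came from a reference list of gene names, which held 32919 of the 37991 genes, and otherwise from GENCODE M21. Exon overlaps and lengths came from GENCODE M21. Libraries were grouped by title, and all pairs differed by more than sampling noise (chi-square 13 to 31.3 per degree of freedom). Same-numbered libraries of the 2 genotypes were the closest pairs (13 and 15.3), ahead of the replicates within dKO (20) and within wt (20.1). Log2 fold changes (dKO minus wt) came from edgeR 4.0.16 (R 4.3.3), with filterByExpr, TMM, the robust quasi-likelihood F test on genotype and Benjamini-Hochberg adjustment over 14027 genes, at 0.05. SEs and 95% intervals were derived from the F statistic. Copies were sought with blastn 2.17.0. Alternatives were other scaling and filters, DESeq2 1.42.0, limma-voom (limma 3.58.1), a replicate block, a threshold of 0.01, other lengths and each library left out. Scripts were tested on simulated data. Members and gene lists were chosen with earlier results of these data known. All members were named, and from each list up to 2 genes with the most positive and 2 with the most negative values. A gene that this rule allows is not reported here.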

Additional observations from a re-analysis of the deposited data

How the results depend on the processing

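No member was called under any alternative run. In the fit over all genes 12 were called, against 80 without the low-count filter, 92 by DESeq2, 5 by limma-voom and 4 at the stricter threshold of 0.01. Leaving out 1 library gave 18 to 27 calls. The cause was not tested. With a replicate block 1299 genes were called (9.26%), with 0 of the 10 members and 10 pathway genes (Dazl, Ddx4, Kdm4c, Mael, Smchd1, Wiz, Zfp462, Zfp809, Zscan4c and Zscan4d); no pathway gene was called otherwise. Under the block all 10 members had a 95% interval within 1.5-fold, and their lowest adjusted p was 0.0846, for Cbx5 (log2 fold change 0.253). At an unadjusted p under 0.05 the block fit had 4 of the 10 members, against 22.2% of all genes tested. Their 95% intervals of the log2 fold change were 0.0512 to 0.42 for Setdb1, 0.0505 to 0.431 for Cbx1, 0.0654 to 0.441 for Cbx5 and -0.494 to -0.0598 for Atrx. Deviations from the genotype mean correlated across genes between libraries of the same number (r = 0.65). The labels state no pairing, and whether the libraries were paired was not tested.

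With 1 library left out, the members' median ran from -0.0361 to 0.222, the number of intervals within 1.5-fold from 2 to 6, and the Suv39h1 share difference from -3.77 to 2.56 percentage points. Log2 fold changes changed sign within these ranges: Ehmt1 -0.0572 to 0.435, Ehmt2 -0.34 to 0.2, Suv39h1 -0.27 to 0.542, Suv39h2 -0.0306 to 0.409, Cbx1 -0.0228 to 0.523, Cbx3 -0.121 to 0.0353 and Trim28 -0.0279 to 0.0183. Each such fit leaves a replicate number in 1 genotype only, so these ranges also take in differences between replicate numbers. Setdb1, Cbx5 and Atrx kept their sign in all 12 alternatives. Scaling, filters and test tool changed no member's sign. With 2 libraries per genotype, precision depends on the spread between them and on the variance that edgeR shares across genes.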
